A study of Mus musculus with 71 samples.

Results

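The 9 genes described here encode proteins that are used to recognise pluripotent mouse cells: the developmental pluripotency-associated factors Dppa2, Dppa3, Dppa4 and Dppa5a, the secreted or membrane-bound ligands Tdgf1, Gdf3 and Fgf4, the RNA-binding protein L1td1 and the chromatin-associated factor Utf1. They were chosen by name, with earlier results of these data known, and all 9 were found among the 21527 genes of the deposited tables. SLAM-seq follows RNA decay by feeding cells the uridine analogue 4-thiouridine (s4U), washing it out with uridine, and reading the s4U left in RNA as T-to-C conversions in sequencing reads. The study asked how acute loss of the mRNA modification m6A changes RNA stability, and used STM2457, a small-molecule inhibitor of the m6A methyltransferase Mettl3.

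Male mouse embryonic stem cells (mESC), kept in 2i/LIF medium, were labelled with 100 µM s4U for 24 h, and either 20 µM STM2457 or only its solvent DMSO was present from 6 h ahead of the chase until lysis. All groups therefore shared the same wild-type line and the same medium, which holds the Mek inhibitor PD0325901 and the Gsk3 inhibitor CHIR99021 together with LIF. Cells were lysed after 0, 1, 1.5, 2.3, 3.5, 5.3, 8 and 12 h of chase, the hours being those drawn in the study's scheme of the experiment, since the sample labels give time point numbers only. Each of the 16 chase groups had 4 replicates, except 3 for STM2457 at 3.5 h, and each treatment had 4 further libraries without s4U, which gives 71 libraries in 18 groups. How long the cells without s4U had been treated is not in the labels.

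Embryonic stem cells in 2i/LIF stay in a naive state that resembles the epiblast of the blastocyst. Dppa2 and Dppa4 are SAP-domain proteins encoded side by side that bind DNA together and prime developmental and 2-cell-stage genes, whereas Dppa3 (also called Stella) protects the oocyte genome from loss of its maternal marks and keeps the DNA methylation factor Uhrf1 out of the nucleus. Fgf4 is the main Fgf ligand of these cells and signals through Fgf receptors and Erk towards exit from the naive state, and Tdgf1 (Cripto) is the membrane co-receptor that Nodal and Gdf3 need to signal through activin receptors. m6A is written by Mettl3 on the A of short GGAC-type motifs, often near the stop codon and in the 3′ UTR, and marked mRNAs are commonly degraded faster.

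Because Mettl3 methylates GGAC-type motifs, matches in the 3′ UTRs of the 6 genes that hold any are shown. The search was for GGAC followed by any base but G, on the sense strand of GENCODE M21 transcripts (GRCm38), and each run below is 29 bases long, 5′ to 3′, with the motif in capitals.
L1td1, 49 bases after the stop codon: ccaagtagagttGGACAgtggaccatcac
L1td1, 56 bases after the stop codon: gagttggacagtGGACCatcacgtctctg
L1td1, 262 bases after the stop codon: tgggatgggaaaGGACAtgataagttaga
Fgf4, 349 bases after the stop codon: aaggcctgcctgGGACCtctgaggcagtg
Fgf4, 370 bases after the stop codon: aggcagtgagaaGGACCctgagcgttccc
Tdgf1, 415 bases after the stop codon: tcttgagttccaGGACAgacaggcctaca
Tdgf1, 502 bases after the stop codon: aagaaaattaatGGACCaggcattgtggc
Tdgf1, 818 bases after the stop codon: gaggctacaacaGGACTactaaaagctca
Gdf3, 6 bases after the stop codon: tgggtagtctcgGGACTaggctaggagtg
Dppa2, 500 bases after the stop codon: agcaactccagtGGACCtggaaattctag
Dppa4, 2 bases after the stop codon: tcgaaggataaaGGACAgatctcttgttt
The first pair of L1td1 runs overlap, so that the second motif is seen in lower case within the first run. Fgf4 is shown with 2 of the 10 matches in its 3′ UTR, the 2 closest to the stop codon, and Gdf3 with 1 of 4. No match was found in the 3′ UTRs of Dppa3, Dppa5a and Utf1.

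The 3′ UTR of Fgf4 is 2302 bases long and its 10 matches compare with a mean of 6.13 in 3′ UTRs within 25% of its length. L1td1 had 3 matches in 364 bases, where such 3′ UTRs hold a mean of 1.22. The 4 matches of Gdf3 in 903 bases and the 3 of Tdgf1 in 1101 bases stood beside means of 2.81 and 3.27, and the single matches of Dppa2 and Dppa4 beside 3.07 and 1.73. Of all 18572 annotated 3′ UTRs, 77.9% held a match. A match is a description of these letters and does not show that the A was methylated in these cells.

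Each gene was located on GRCm38 with GENCODE M21. L1td1 lies on chromosome 4, chr4:98726734-98738480 on the plus strand. Gdf3 and Dppa3 are neighbours on chromosome 6, at chr6:122605403-122610087 on the minus strand and chr6:122626410-122630272 on the plus strand. Utf1 and Fgf4 are on the plus strand of chromosome 7, at chr7:139943789-139945112 and chr7:144847367-144865243. Dppa5a and Tdgf1 are on the minus strand of chromosome 9, at chr9:78367052-78368177 and chr9:110939603-110946158. Dppa4 and Dppa2 lie next to each other on the plus strand of chromosome 16, at chr16:48283733-48294237 and chr16:48303908-48319723. The counted windows of 251 to 500 bases are the study's own 3′ UTR annotation, and none of those of the 9 genes had the same length and T content as the end of the GENCODE transcript used here, so values belong to that window and not to the whole 3′ UTR.

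The libraries held 4539726 to 7368244 counted reads. Levels are given in CPM, the counts-per-million of each library. Pou5f1 and Nanog, which mark pluripotent cells, had means of 819 and 228 CPM. Of the 12 pluripotency factors in the tables, Klf4 and Prdm14 had the lowest means, 2.8 and 1.31 CPM. These means were below the 10.8 CPM of Thy1, the highest fibroblast or feeder marker. Sox2 was not in the tables. The 6 of 7 fibroblast or feeder markers in the tables summed to 4.09 to 24.1 CPM. Of these, 2 were past the filter on low counts and 1 was at 0 in every library. The first component of the spread within groups took 8.51% of it, and every library was given its score on it. Scores spread most at 1 h in both treatments and at 5.3 and 1.5 h in DMSO, with SDs of 42.4 and 34.7 at 1 h, 29.6 and 21.8 in the others. The 4 DMSO libraries at 1.5 h had scores from −41.02 to 3.45 and those of STM2457 from 14.8 to 18.9, without overlap, and at 5.3 h the means were −25.8 and 3.72. Means over the chase and most differences at these times are also given without the 2 time points or with the score as a covariate, both chosen after the data had been seen, and since the score was taken from these same libraries, p-values from the covariate are too small.

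**Figure D1:**
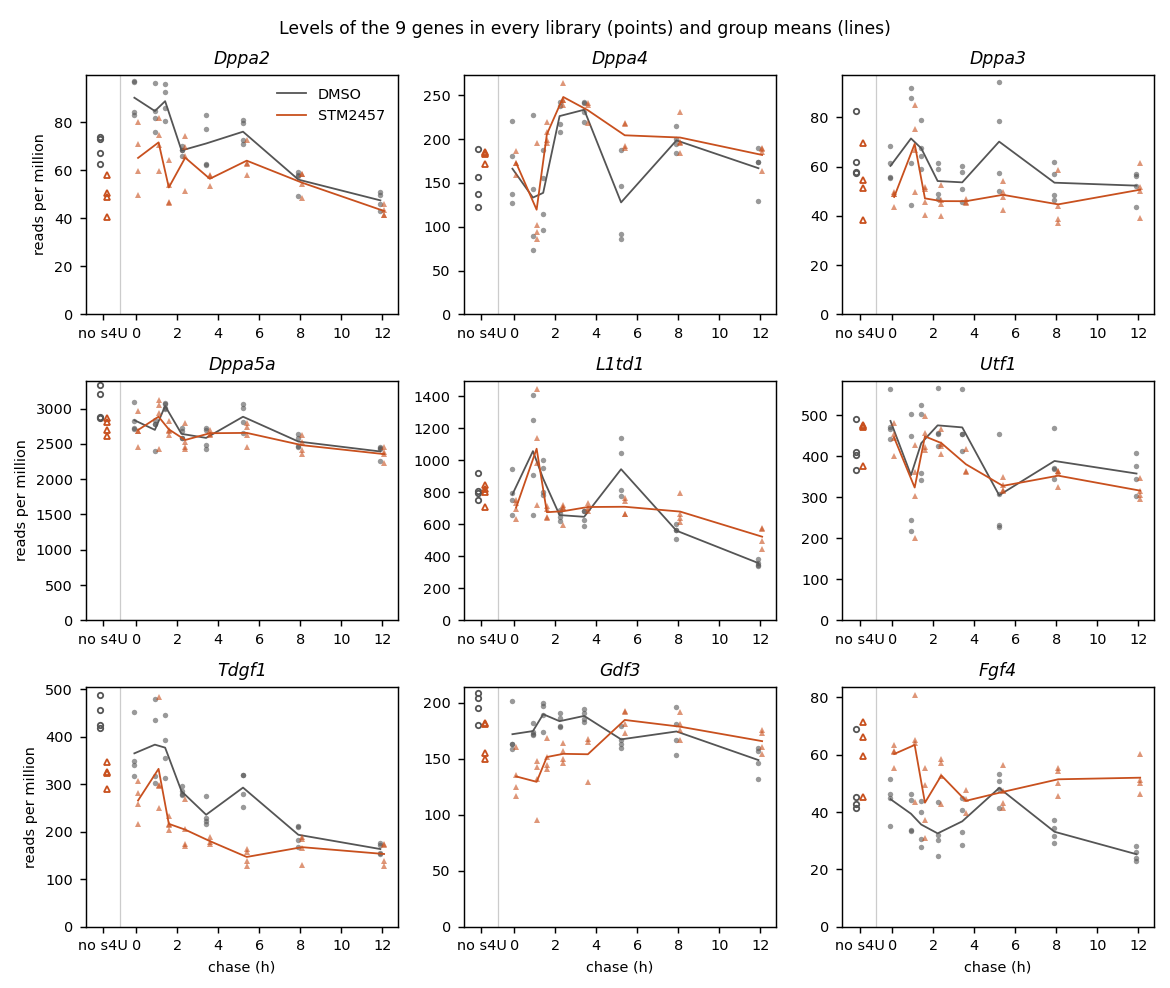
CPM (reads-per-million in the picture) (y axis) of the 9 genes against hours of chase (x axis), with libraries without s4U at the left as open symbols. Points are single libraries and lines join the means of DMSO (grey) and STM2457 (orange); Fgf4 with STM2457 stayed at 46.2 to 60.3 at 12 h, above 22.9 to 27.98 with DMSO.

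In DMSO, Dppa5a had by far the highest level, with a median of 2704 CPM over 32 chase libraries. It was followed by L1td1 with 685, Utf1 with 435, Tdgf1 with 283, Dppa4 with 186 and Gdf3 with 176. The lowest levels were those of Dppa2 with 74.4, Dppa3 with 57.6 and Fgf4 with 34.8. Reads came from transcript ends, so levels were not divided by window length. The libraries of Dppa5a did not overlap those of L1td1, nor those of Gdf3 the ones of Dppa2. Every other pair of neighbours in the order did overlap. Dppa5a rested almost wholly on multimapping reads, 99.9% of its reads. The end of its transcript shared 98 of 236 runs of 25 bases with transcripts of Pigp and 52 with those of Gm6083, at any position in them. Values of Dppa5a are therefore uncertain. The transcript end of Gdf3 also shared 50 of 476 runs with transcripts of Pbdc1, but only 0.398% of its reads in DMSO and 0.209% in STM2457 were multimapping. For Dppa3 the share of multimapping reads was 23.5%, for Tdgf1 10.1%, and for the others at most 6.14%.

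Over the mean of the 8 chase times, Fgf4 was higher with STM2457 and Tdgf1, Dppa2, Dppa3 and Gdf3 were lower. Fgf4 differed by 0.52 on the log2 scale (SE 0.06, adjusted p = 5.64e-11) and Tdgf1 by −0.44 (SE 0.05, adjusted p = 4.19e-11), from edgeR's quasi-likelihood test with Benjamini-Hochberg adjustment over 12659 genes. The difference was −0.27 for Dppa2 (SE 0.04, adjusted p = 5.08e-07), −0.26 for Dppa3 (SE 0.06, adjusted p = 0.000473) and −0.15 for Gdf3 (SE 0.04, adjusted p = 0.00109). Dppa4 at 0.19 (SE 0.08, adjusted p = 0.0382), Utf1 at −0.09, L1td1 at 0.03 and Dppa5a at −0.02 were not past the threshold of 0.01. Thus 1 of 9 was higher and 4 were lower, against 26.5% of all genes called in either direction. The median difference was −0.09 for the 9 genes and −0.01 for all genes. Counts were scaled so that most genes lie near no change, so every difference is relative to the other transcripts. The study warns that scaling to total transcript abundance can bias results, above all when a treatment affects most genes. It scaled its RNA-seq to spike-ins or to genes without m6A sites. Neither was done here, and a change of RNA per cell was not tested.

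**Figure D2:**
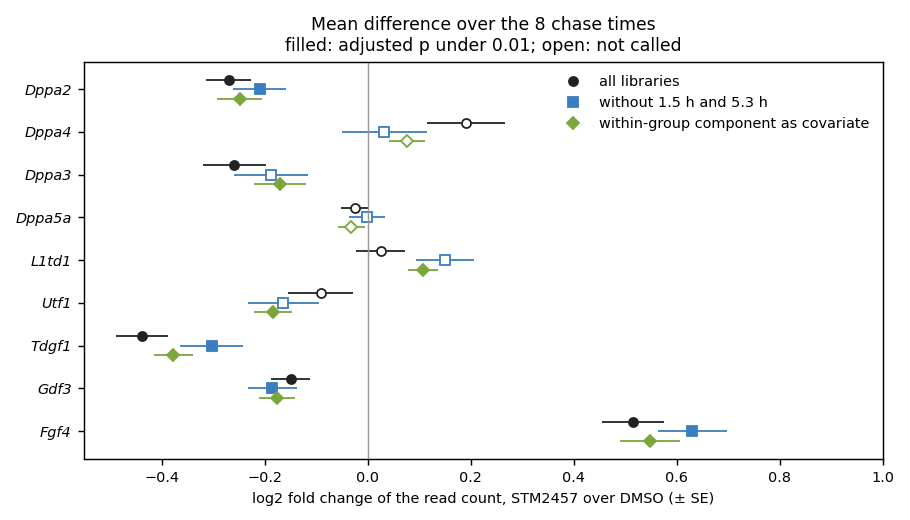
Mean log2 fold change of STM2457 over DMSO across the chase (x axis, bars are the SE) for each gene, from all libraries (black), without 1.5 and 5.3 h (blue) and with the component score as a covariate (green). Filled symbols passed an adjusted p of 0.01; Fgf4 lay between 0.52 and 0.63 and Tdgf1 between −0.44 and −0.30 in the 3 fits, whereas Dppa4 fell from 0.19 to 0.03 without 1.5 and 5.3 h.

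Without 1.5 and 5.3 h, Fgf4 at 0.63, Tdgf1 at −0.30, Dppa2 at −0.21 and Gdf3 at −0.19 stayed past the threshold, and Dppa3 at −0.19 did not (adjusted p = 0.042). Dppa4 then came to 0.03, L1td1 to 0.15 and Utf1 to −0.16, none of them called. With the score as a covariate, L1td1 at 0.11 and Utf1 at −0.18 were also called, and Dppa4 was at 0.08. The direction over the chase was thus the same in these fits for each of Fgf4, Tdgf1, Dppa2, Dppa3 and Gdf3.

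Fgf4, the Fgf ligand, was the 1 gene of the 9 that was higher over the chase, and the difference was largest at its end. At 12 h, its 4 DMSO libraries had 27.98, 26.03, 22.9 and 24.1 CPM and its 4 STM2457 libraries 60.3, 50.3, 51.2 and 46.2. Every STM2457 library was thus above every DMSO library, and the log2 fold change was 1.08 (SE 0.17, edgeR adjusted p = 2.58e-06). Here and below, the share of all genes whose groups were apart in CPM at a given time was not counted.

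At 0 h, after 6 h of treatment, the DMSO libraries of Fgf4 had 51.7, 46.4, 35.1 and 44.8 CPM against 55.3, 63.5, 60.9 and 61.3, again without overlap, with a log2 fold change of 0.46 that was not called (SE 0.16, adjusted p = 0.106). The groups also did not overlap at 8 h, with 29.1 to 37.1 in DMSO and 45.5 to 55.5 in STM2457. The mean with STM2457 was higher at 7 of the 8 times, the exception being 5.3 h with 48.4 in DMSO against 47.02 in STM2457. Fgf4 was called at 2.3 h with 0.69 (adjusted p = 0.0078), a call that was lost when any of 6 libraries was left out, with the lowest value 0.55 without DMSO replicate 2. At 1 h and 8 h it stood just outside the threshold, with 0.66 (adjusted p = 0.0109) and 0.65 (adjusted p = 0.0105), and with the covariate the value at 1 h was 0.65 and called. The 125 to 448 reads behind each chase value of Fgf4 were the lowest of the 9 genes.

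Tdgf1, the Nodal and Gdf3 co-receptor, had a lower mean with STM2457 at each of the 8 times, and the largest differences were in the middle of the chase. At 5.3 h, the DMSO libraries had 252, 280, 320 and 319 CPM and the STM2457 libraries 157, 164, 139 and 127, with no overlap and a log2 fold change of −0.96 (SE 0.14, adjusted p = 1.37e-06). With the score as a covariate, this value was −0.75.

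At 1.5 h, DMSO libraries of Tdgf1 ranged from 312 to 446 CPM and STM2457 libraries from 203 to 232, a log2 fold change of −0.75 (SE 0.14, adjusted p = 0.000106), or −0.48 with the covariate. The groups were also apart at 0 h, with 452, 341, 317 and 349 against 282, 306, 217 and 258, where the fold change of −0.44 was not called (adjusted p = 0.0607). At 12 h they overlapped, with 152, 175, 171 and 154 in DMSO and 138, 128, 173 and 172 in STM2457, and the fold change was −0.05 (SE 0.14). Without s4U, Tdgf1 had 457, 425, 418 and 487 in DMSO and 323, 289, 325 and 347 in STM2457, apart but not called (−0.47, adjusted p = 0.0296).

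Gdf3, a ligand of the TGF-β family, had lower means with STM2457 early in the chase and not at its end. Its means were 172 CPM in DMSO and 134 in STM2457 at 0 h, and 149 and 166 at 12 h. The groups did not overlap at 1, 1.5, 2.3 and 3.5 h, each time with STM2457 below. How many other genes were apart at these times was not counted, and at 1.5 h the component scores were apart as well. At 1 h, DMSO libraries had 182, 172, 172 and 173 CPM and STM2457 libraries 147, 131, 143 and 95.5, and this was its 1 called time, with −0.45 (SE 0.11, adjusted p = 0.00573). With the score as a covariate, its values at 1 and 1.5 h were −0.45 and −0.39, both called. Without STM2457 replicate 4 at 1 h, the library at 95.5, the value was −0.31 and not called, and 2 further libraries also ended the call, DMSO replicate 1 with −0.43 and STM2457 replicate 2 with −0.47.

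Dppa2 and Dppa4 act as a pair, and Dppa2 was called over the chase and at 1.5 h, whereas Dppa4 was called in neither. The mean of Dppa2 was lower with STM2457 at each of the 8 times. At 1.5 h, its DMSO libraries had 80.5, 96.1, 86.1 and 92.9 CPM and its STM2457 libraries 53.8, 46.99, 64.4 and 46.4, a called fold change of −0.70 (SE 0.12, adjusted p = 2.83e-05) that was −0.61 with the covariate. At 0 h the libraries were also apart, with 97.2, 96.7, 83.0 and 84.4 against 71.1, 80.1, 49.96 and 59.8, and the fold change of −0.45 missed the threshold (adjusted p = 0.0163). Without s4U, Dppa2 had 67.3, 73.8, 62.5 and 73.2 in DMSO and 58.3, 40.8, 50.4 and 48.99 in STM2457, with −0.47 (adjusted p = 0.0101). At 8 and 12 h the groups overlapped, and the differences were −0.02 and −0.10.

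Dppa4 was not called at any time. At 5.3 h its DMSO libraries had 187, 146, 91.4 and 86.0 CPM and its STM2457 libraries 218, 190, 192 and 218, with no overlap and a log2 fold change of 0.71 (SE 0.21, adjusted p = 0.0207), which with the covariate was 0.30. The 2 lowest of these DMSO libraries were those with the lowest scores at that time, −48.9 and −53.1. Dppa4 had a higher weight on the component than 95.1% of genes, Utf1 than 90.2%, and Dppa3 and L1td1 a lower one than all but 12.9% and 13.7%. Over the 18 group means, the log2 levels of Dppa2 and Dppa4 had a correlation of −0.34, a description of groups that share treatments and times.

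**Figure D3:**
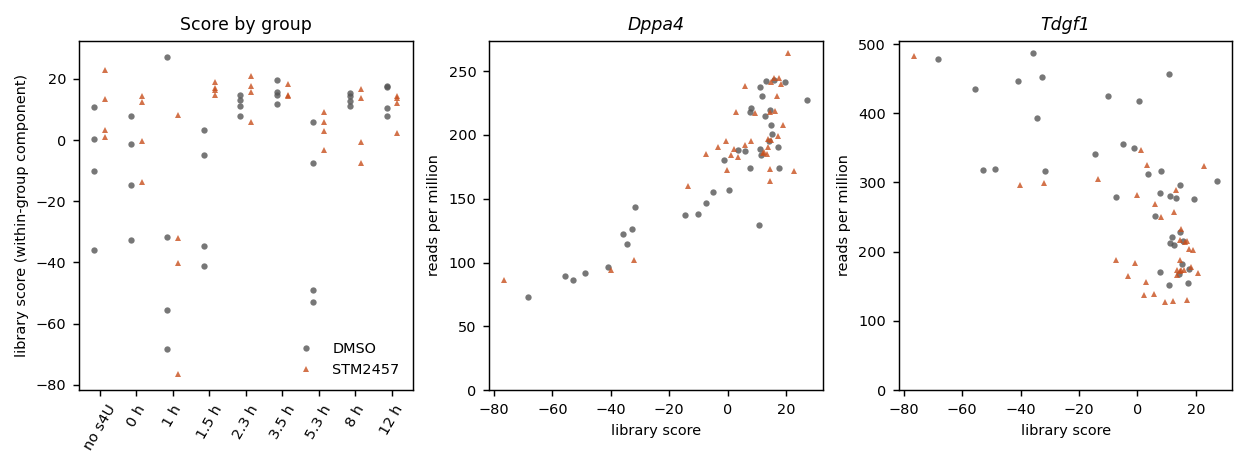
The left panel shows the score of each library on the first within-group component (y axis) by group (x axis), and the others show the CPM of Dppa4 and Tdgf1 (y axis) against that score (x axis), with 1 point per library (DMSO grey, STM2457 orange). The 6 lowest scores, from −76.6 to −41.02, were those of libraries at 1, 1.5 and 5.3 h, and libraries with low scores had low Dppa4 and mostly high Tdgf1.

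Dppa3, which keeps Uhrf1 out of the nucleus, was lower with STM2457 in the mean of all 8 times. The groups were apart at 0 h, with 55.4 to 68.4 CPM in DMSO and 43.6 to 49.8 in STM2457, and at 1.5 h, with 58.97 to 79.04 and 40.4 to 51.8. No single time was called, the largest differences being −0.50 at 5.3 h (adjusted p = 0.0461) and −0.47 at 1.5 h (adjusted p = 0.0465), which with the covariate were −0.19 and −0.13. Dppa5a, an RNA-binding KH-domain protein, differed least over the chase, with 2256 to 3086 CPM in DMSO and 2223 to 3114 in STM2457, and of the chase times was apart at 1.5 h only, with 2997 to 3081 against 2624 to 2828 (−0.12, SE 0.08, or −0.15 with the covariate). Without s4U it was also apart, with 2867 to 3339 in DMSO and 2615 to 2860 in STM2457.

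L1td1, an RNA-binding protein derived from a LINE-1 open reading frame, was higher with STM2457 at the end of the chase. At 12 h, DMSO libraries had 384, 347, 342 and 359 CPM and STM2457 libraries 449, 498, 570 and 575, without overlap, and the log2 fold change was 0.59 (SE 0.13, adjusted p = 0.000964). At 8 h the groups were also apart in this direction, with 510 to 604 and 616 to 796 and 0.29 (adjusted p = 0.229), whereas at 1.5 and 5.3 h they were apart in the other direction, with 786 to 999 against 642 to 717 and with 775 to 1137 against 663 to 767. These 2 differences, −0.34 and −0.38, were −0.02 and −0.10 with the covariate. Utf1, a regulator of bivalent chromatin, had a lower mean with STM2457 at 6 of 8 times and was not called at any. Its largest fold change was −0.30 at 3.5 h (SE 0.19), where DMSO libraries had 412 to 563 and STM2457 libraries 360 to 418.

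Counted by time, 0 of the 9 genes were called without s4U and at 0, 3.5 and 8 h, 1 at 1 h, 2 at 1.5 h, 1 at 2.3 h, 1 at 5.3 h and 2 at 12 h. Of all genes, 2.58% were called without s4U, 1.68% at 0 h, 1.53% at 1 h, 8.18% at 1.5 h and 1.61% at 2.3 h. The shares were 1.30% at 3.5 h, 4.45% at 5.3 h, 2.34% at 8 h and 5.41% at 12 h. Where no gene of the 9 was called, 4 had an unadjusted p under 0.05 without s4U, 4 at 0 h, 3 at 3.5 h and 2 at 8 h. Among all 12659 genes, 2557, 2033, 1744 and 2108 had such a p in the same order. DESeq2 called Dppa2 without s4U and at 0 h, Fgf4 at 8 h and none of the 9 at 3.5 h.

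Levels of several of these transcripts fell over the 12 h of chase in both treatments. In DMSO, 5 of the 9 were lower at 12 h than at 0 h, where 13% of all genes were called: Tdgf1 by −1.296 on the log2 scale, L1td1 by −1.27, Dppa2 by −1.06, Fgf4 by −0.95 and Dppa5a by −0.38. In STM2457, where 4.72% were called, 4 were lower: Tdgf1 by −0.91, Dppa2 by −0.71, L1td1 by −0.54 and Dppa5a by −0.31. When 1 STM2457 library was left out, 2 to 4 calls were left. The call of L1td1 was lost without replicate 1 or 2 at either time, with −0.54 to −0.44, and that of Dppa5a without replicate 1 or 3 at 0 h or replicate 1, 2 or 3 at 12 h, with −0.32 to −0.24. Without multimapping reads, Dppa5a was at −2.19 in DMSO (adjusted p = 0.0486) and −1.95 in STM2457 (adjusted p = 0.125), neither called. With the component score as a covariate, all but Dppa3 were called lower in DMSO, with Utf1 at −0.88 and Dppa4 at −0.49.

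The change from 0 to 12 h differed most between treatments for L1td1, by 0.73 (SE 0.19, adjusted p = 0.0161). The difference was 0.62 for Fgf4 (adjusted p = 0.173) and 0.53 for Gdf3 (adjusted p = 0.0389), while Utf1 was at −0.03. Of all genes, 1.11% passed this test and 0 of the 9. An unadjusted p under 0.05 was found for 4 of the 9 and for 1799 of 12659 genes. DESeq2 called L1td1 (0.74, adjusted p = 0.0055). Labelling itself, 0 h against no s4U, was called for 0.513% of all genes in DMSO and 0.521% in STM2457 and for 0 of the 9 in both. An unadjusted p under 0.05 was found for 4 and 3 of the 9, and for 1445 and 1578 of 12659 genes. DESeq2 called 0 of the 9. The values were 0.34 and 0.35 for Dppa2 and −0.34 and −0.32 for Tdgf1 in DMSO and STM2457.

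At 0 h, the share of covered T positions read as C was 2.04% ± 0.14 (SD, n = 4) in DMSO and 1.90% ± 0.19 in STM2457 for Utf1, which without s4U already read 0.811% and 0.734%. For L1td1 it was 1.40% ± 0.06 and 1.35% ± 0.09, and for Tdgf1 1.195% ± 0.12 and 1.296% ± 0.15. The largest difference in percentage points was that of Dppa3, with 1.44% ± 0.16 against 1.18% ± 0.23 (two-sided exact permutation p = 0.143). Exact p-values of the 9 genes ranged from 0.143 to 0.743, with 0.0286 the smallest that 4 against 4 libraries allow, and over all windows the rates were 1.37% and 1.28% (exact p = 0.114). These tests treat the libraries as unpaired. Over all windows, replicates 1 to 4 had 1.28, 1.43, 1.396 and 1.37% in DMSO and 1.18, 1.299, 1.355 and 1.27% in STM2457, which was lower in each of the 4 same-numbered pairs.

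**Figure D4:**
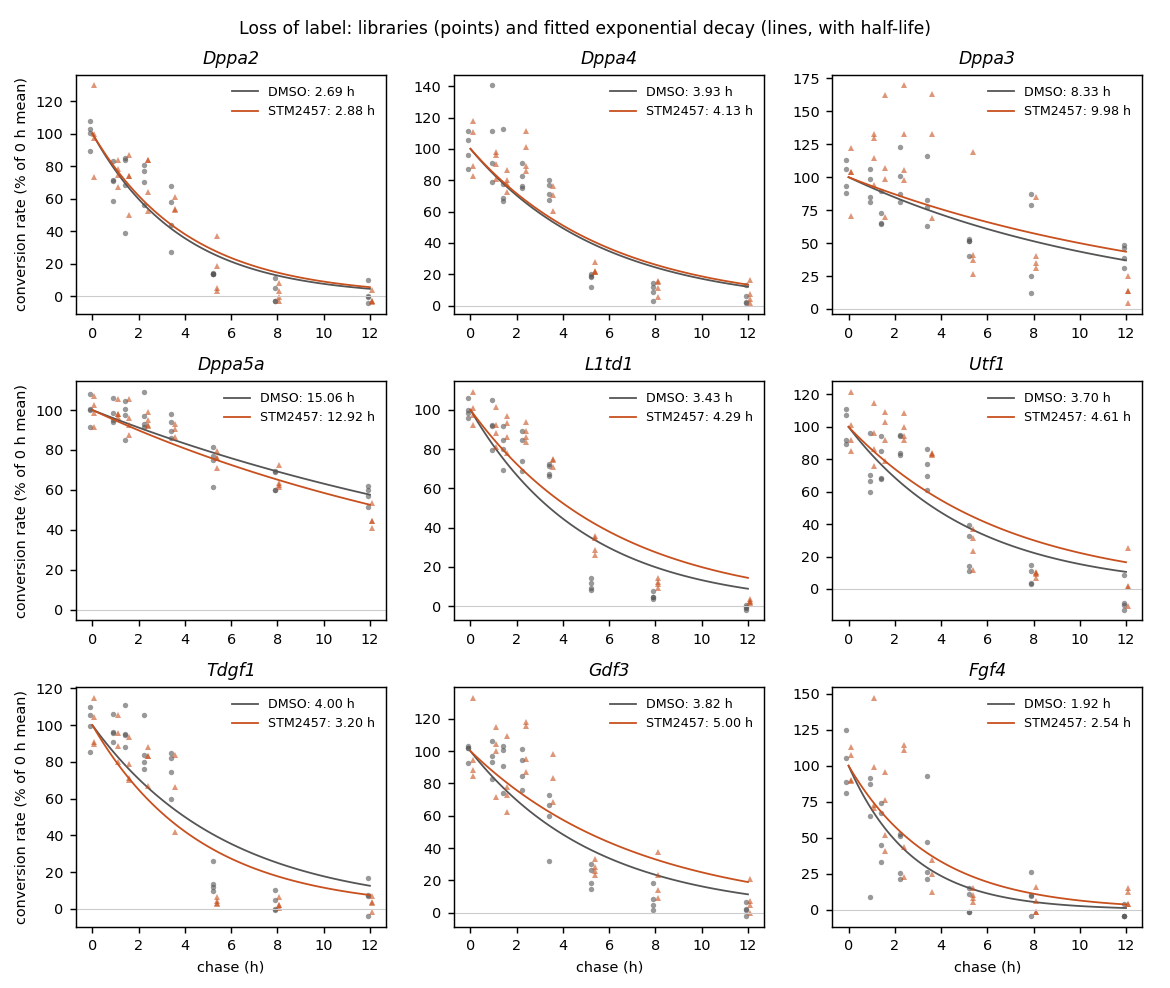
Conversion rate after subtraction of the rate without s4U, as a percent of the 0 h mean of the same treatment (y axis), against hours of chase (x axis). Points are libraries (DMSO grey, STM2457 orange) and lines the fitted exponential decay; means lie mostly above the lines from 1 to 3.5 h and mostly below from 5.3 h, and at 5.3 h L1td1 kept 31.2% with STM2457 and 10.9% with DMSO.

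Half-lives were fitted to the mean rates of each treatment. In DMSO, Fgf4 was the least stable of the 9 with 1.92 h, followed by Dppa2 with 2.69 h, and both were shorter than the median of 3.19 h of 7408 transcripts. L1td1 with 3.43 h, Utf1 with 3.70 h, Gdf3 with 3.82 h, Dppa4 with 3.93 h and Tdgf1 with 4.00 h were close to one another. Dppa3 with 8.33 h and Dppa5a with 15.1 h were longer than those of 96.5% and 99.9% of transcripts. In the replicate series, Fgf4 spread from 0.82 to 3.88 h and Dppa3 from 4.55 to 22.6 h, so that the order among close neighbours lies within the spread.

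With STM2457, the fitted half-lives were longer for 7 of the 9 genes and shorter for 2, against 56.7% longer among all transcripts. They came to 2.54 h for Fgf4, 2.88 h for Dppa2, 4.29 h for L1td1, 4.61 h for Utf1, 5.00 h for Gdf3, 4.13 h for Dppa4 and 9.98 h for Dppa3. Tdgf1 at 3.20 h and Dppa5a at 12.9 h were the shorter ones. Those of Utf1 rest on subtracting a large rate without s4U, 0.811% ± 0.17 (SD, n = 4) in DMSO and 0.734% ± 0.10 in STM2457. Its rates at 0 h were 2.04% and 1.90%. When 1 library at every chase time was left out in turn, the libraries without s4U all stayed in the fit. The half-lives of L1td1, Utf1 and Gdf3 stayed longer and those of Tdgf1 and Dppa5a shorter. For Utf1 this does not cover the spread of the rate without s4U. The direction turned for Dppa2 without STM2457 replicate 1 or 4, for Dppa4 without DMSO replicate 4 or STM2457 replicate 2, and for Dppa3 without DMSO replicate 4. The log2 ratio was then −0.06 for Dppa3, which could not be fitted within the limits without STM2457 replicate 1, 3 or 4, and that of Fgf4 ranged from 0.02 without DMSO replicate 3 to 0.71 without DMSO replicate 1. The median log2 ratio was 0.26 for the 9 genes, the value of Dppa3, and 0.07 for all transcripts, where it came to 0.01 without STM2457 replicate 1.

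**Figure D5:**
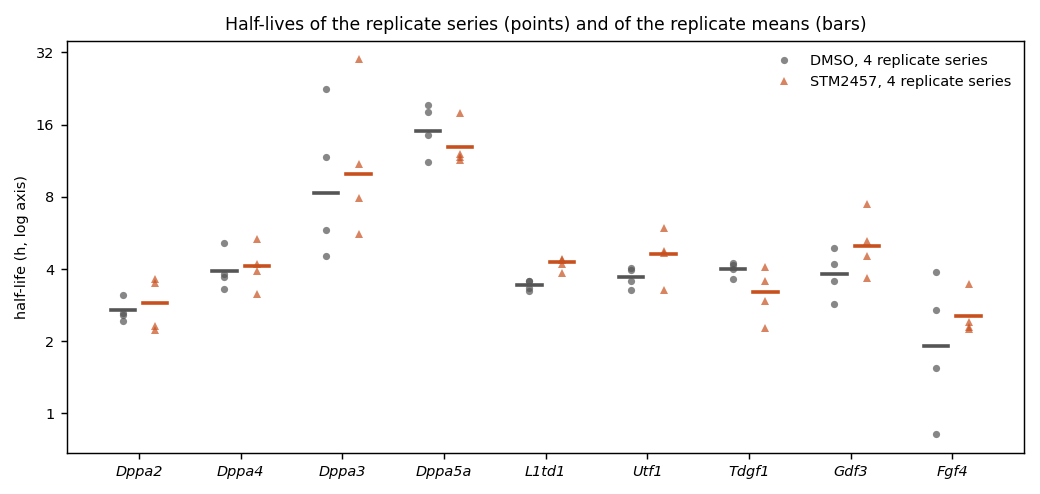
Half-lives in hours (y axis, log scale) of the 9 genes (x axis), from replicate series (points, 4 per treatment) and from the replicate means (bars). L1td1 is the gene whose series do not overlap between DMSO (3.24 to 3.57 h) and STM2457 (3.85 to 4.42 h).

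L1td1 was the 1 gene whose replicate series were apart, with 3.24, 3.57, 3.34 and 3.56 h in DMSO and 4.42, 4.36, 3.85 and 4.196 h in STM2457. The two-sided exact permutation p was 0.0286, the smallest this design allows, and is not corrected for the number of transcripts. How many other transcripts had series apart was not counted. For Tdgf1, the series were 3.63 to 4.25 h and 2.26 to 4.07 h, and overlapped (exact p = 0.0857). For Fgf4 the STM2457 series of 2.24 to 3.48 h lay inside the DMSO range (exact p = 0.514). With limma on log2 half-lives, 0 of 5772 transcripts (0.0%) passed an adjusted p of 0.05, 405 had an unadjusted p under 0.05, and none of the 7 genes with a value in each series were among either. The smallest adjusted p among the 7 was 0.814, for L1td1 (log2 ratio 0.30, SE 0.20), Tdgf1 (−0.35, SE 0.25) and Gdf3 (0.41, SE 0.29). Dppa3 and Dppa5a had series beyond 18 h and were left out of that test.

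The exponential was a rough description of most of the 9. For L1td1 in DMSO, 69.3% of the label was left at 3.5 h and 10.9% at 5.3 h, where the fitted curve gives 49.3% and 34.2%. Tdgf1 in DMSO went from 75.2% to 15.3% between the same times, and Dppa4 from 74.0% to 17.2%. Over all windows the step was smaller, from 72.0% to 35.2%, and Dppa5a went from 91.9% to 73.8%. Residual standard errors of the 9 fits ranged from 0.05 for Dppa5a to 0.28 for Dppa3 with STM2457, under the limit of 0.3.

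At 5.3 h, where this step ends, the rates of L1td1 and Tdgf1 were apart between treatments in opposite directions, a time chosen after the values were seen. L1td1 had 0.242, 0.174, 0.206 and 0.162% in DMSO and 0.375, 0.412, 0.508 and 0.491% in STM2457, or 10.9% ± 2.6 (SD, n = 4) against 31.2% ± 4.8 of the 0 h rate. Each value rested on at least 90009 covered T positions, and the lowest STM2457 rate was above the highest DMSO rate.

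Tdgf1 kept 15.3% ± 7.2 in DMSO and 4.18% ± 1.8 in STM2457, every STM2457 library being below every DMSO library. These rates rested on only 44 to 106 conversions per library in DMSO and 16 to 23 in STM2457. The STM2457 mean of 0.111% stood beside 0.0595% without s4U. The raw rates of the other 7 genes overlapped, although as a percent of the 0 h rate Dppa4 was also apart, with 11.6 to 20.2% in DMSO and 21.2 to 27.6% in STM2457. Of 6941 transcripts with over 1000 covered T positions in each library at 5.3 h, raw rates with STM2457 were above DMSO without overlap in 3.75% and below in 2.52%, and over all windows 35.2% and 37.1% of the label was left. At 8 h, L1td1 had 5.21% ± 1.9 left in DMSO and 11.7% ± 2.2 in STM2457, with overlapping raw rates and no overlap in the percent left. At 12 h, Dppa3 was the gene of the 9 whose raw rates were apart, with 40.99% ± 8.0 left in DMSO and 14.01% ± 8.5 in STM2457. This direction was opposite to that of its fitted half-lives. Its libraries at 12 h held 27 to 43 conversions in DMSO and 13 to 27 in STM2457. Over all windows 15.3% and 11.7% were left, also without overlap, and the share of transcripts apart at 12 h was not counted. In the percent left, L1td1 and Fgf4 were also apart at 12 h, with STM2457 above and DMSO at up to 0.73% and 3.79%. The lowest STM2457 values were close to these, 1.32% and 3.92%. Fgf4 rested there on 0 to 2 conversions per library in DMSO and 3 to 9 in STM2457.

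The slope of the log2 conversion rate over the hours of chase was compared with limma. L1td1 fell by 0.47 per hour in DMSO and by 0.39 in STM2457, a difference of 0.08 (SE 0.03, limma adjusted p = 0.151) that did not pass 0.05, and Dppa3 differed by −0.08 (SE 0.03, adjusted p = 0.298). These were the 2 of 9 with an unadjusted p under 0.05, which 1503 of 11608 genes also had. Of the 9, 0 were called, against 1.81% of the 11608 genes. With the background subtracted, L1td1 with 0.16 (limma adjusted p = 0.00257) and Dppa3 with −0.14 (adjusted p = 0.0433) were called, as were 670 of 11608 genes. In that fit, rates under 1e-04 as a fraction were set to 1e-04. L1td1 in DMSO had 0.0257 to 0.0592% at 12 h, near its mean of 0.0494% without s4U, so its slope rests in part on this limit. Without subtraction, Tdgf1 differed by −0.01 (SE 0.06) and Fgf4 by 0.05 (SE 0.08). Utf1 differed by 0.0004 (SE 0.03) without subtraction and by 0.05 (SE 0.06) with it, not called in either.

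Genes that work with the 9 were taken from lists of their pathways, and STM2457 was compared with DMSO over the chase. Naive pluripotency factors were mostly higher: 8 of 12 tested rose and none fell, with a list median of 0.41 against −0.01 for all genes and 26.5% of all genes called. The 4 called genes with the largest change were Nr0b1 with 0.82, Zfp42 with 0.69, Esrrb with 0.64 and Klf2 with 0.64. Pou5f1, at 0.00, was among the 4 not called. Fgf4 thus moved in the direction of these factors, and Tdgf1, Dppa2, Dppa3 and Gdf3 in the other.

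Among partners of Tdgf1 and Gdf3, 3 of 12 tested fell and none rose, with a list median of 0.04. For comparison, 26.5% of all genes were called in either direction. The Nodal antagonist Lefty1 with −0.37 and the ligand Nodal with −0.19 were among the 3. Without 1.5 and 5.3 h, and also with the score as a covariate, 2 of this list fell. In the Fgf4 pathway, 3 of 15 rose and 3 fell, with a median of 0.02. The adaptor Frs2 was higher by 0.39, and the phosphatase Ptpn11 and the feedback inhibitor Spry2 were at −0.34 and −0.21. Without 1.5 and 5.3 h, 2 rose and 4 fell.

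Of 9 genes of DNA methylation and of Dppa3's nuclear export route, 5 fell and none rose, with a median of −0.15. The 4 with the largest change were the methyltransferase Dnmt3b with −0.51, its cofactor Dnmt3l with −0.27, Uhrf1 with −0.19 and the methyltransferase Dnmt3a with −0.19. The share of all genes called was 26.5%. Without 1.5 and 5.3 h, 4 genes of this list fell. Of the 2-cell-stage genes that Dppa2 and Dppa4 are known to prime, 12 of 13 were in the tables, 2 passed the filter and neither was called, 3 were at 0 in every library, and the list summed to 1.002 to 8.44 CPM. Differentiation markers summed to 52.99 to 158 CPM, with 2 of 10 lower, T with −0.44 and Nes with −0.34, against 26.5% of all genes called. Their list median was 0.02, or 0.16 without 1.5 and 5.3 h, where 1 was lower. With the covariate, 1 was higher and 2 lower. At 12 h, Cdx2 was called higher by 1.11 (edgeR adjusted p = 0.000558), T at 0.57 was not called, and no marker of this list was called lower. For fibroblast or feeder markers, 0 of 2 tested were called, and Thy1 was the highest with a mean of 10.8 CPM. In bulk RNA, a change in the share of cells that express a gene and a change of RNA per cell cannot be told apart.

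The genes whose group means ran most like those of the 9 were found by Pearson correlation of mean log2 levels over the 18 groups, which share libraries and times, so that the values describe likeness only. Dppa3 was most like Mrpl1 (r = 0.98) and Hprt, L1td1 like Arxes2 (0.97) and Ubxn7, Tdgf1 like Jpt2 (0.97) and Rpf1, and Dppa4 like Ryk (0.95) and Dynll2. Fgf4 was most like Fbxo5 (0.94) and Eif1a, Utf1 like Akr1b3 (0.93) and Etv4, Dppa5a like Snrpe (0.93) and Snrpg, and Dppa2 like Polr2k (0.92) and Smpd4. Gdf3 had the least close neighbours, Gm28503 (0.85) and Ppp2r1b. None of the 9 was among the closest neighbours of another.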

How the data were processed

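The 71 libraries were grouped by treatment and chase time from the sample labels, and the replicates are described by the study as independent. The authors mapped 3′ end reads to GRCm38.p6 with SLAM-DUNK, allowing multimapping, masked variants called in the libraries without s4U, and deposited per gene and library the raw counts of reads, multimapping reads, covered T positions and T-to-C conversions on 3′ UTR windows. The deposited conversion rate is a fraction, the conversions divided by covered T positions, and the deposited CPM (counts-per-million) is the read count scaled to the library total. Reads carry no molecular identifiers, as far as the sources used here state.

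Counts of all 71 libraries were fitted in one model with edgeR 4.0.16 (TMM, its filter on low counts, quasi-likelihood test, 12659 genes, R 4.3.3), with Benjamini-Hochberg adjustment and a threshold of 0.01. Library totals ranged from 4539726 to 7368244 reads, and no replicate pair agreed within sampling noise. Half-lives were fitted by least squares (Python 3.11.15, numpy 2.4.6, scipy 1.17.1, pandas 2.3.3) to mean rates less the rate without s4U, divided by the 0 h rate, with mean T coverage over 100, half-life from 0.67 to 18 h and residual standard error at most 0.3. Half-lives of 4 replicate series and slopes of log2 rates, with 0.5 conversions added, were tested with limma 3.58.1 at 0.05, and single values with two-sided exact permutation tests. DESeq2 1.42.0, other filters and size factors, leaving out libraries and a replicate block were alternatives. The statistics were tested on simulated data. Sequences and positions came from GENCODE M21.

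The 9 genes and all lists were chosen with earlier results of these data known. Named genes are the 9, their 2 closest neighbours each, and from each list up to 4 called genes with the largest change, or the highest marker. Pou5f1, Nanog, Klf4, Prdm14, Sox2 and Cdx2 are also named, outside this rule. Some genes that the rule would name are not reported here.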

Additional observations from a re-analysis of the deposited data

Results flagged for a closer look

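Among 189 groups of 4 values, 11 (5.82%) held a value far from the other 3 by Dixon's test, where chance gives about 5%. At 1 h of chase, STM2457 replicate 3 had 195 CPM of Dppa4 against 86.3 to 102 in the others, and DMSO replicate 2 had 2405 of Dppa5a against 2777 to 2832. At 12 h, DMSO replicate 4 had 2256 of Dppa5a against 2422 to 2450. For L1td1, STM2457 replicate 2 at 2.3 h was low with 594 against 702 to 722.

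Utf1 was low in STM2457 replicate 4 without s4U, with 376 against 471 to 477, and in STM2457 replicate 1 at 8 h, with 326 against 359 to 363. Gdf3 was high in DMSO replicate 1 at 0 h, with 202 against 159 to 163, and its conversion rate at 0 h was low in DMSO replicate 2, with 1.07% against 1.17 to 1.19%. Fgf4 was high in DMSO replicate 2 without s4U, with 68.9 against 41.4 to 45.2. The half-life series of STM2457 replicate 1 gave 17.9 h for Dppa5a against 11.34 to 12.07 h, and that of STM2457 replicate 2 gave 3.48 h for Fgf4 against 2.24 to 2.40 h.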

How the results depend on the processing

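Of 1583 values recomputed under alternatives, 1494 were taken as unchanged. Tested differences had to keep their direction and their side of the threshold, and half-lives to move by less than the replicate spread. Counts of called genes had to stay within 1.5 times, whichever genes were called. Over the chase, 5 or 6 of the 9 genes were called when 1 library was left out. Without DMSO replicate 1 at 1 h, Dppa4 was called (0.24, adjusted p = 0.00223) and L1td1 turned to −0.0039 (range without 1 library −0.0039 to 0.0455). At single times, the calls among the 9 without 1 library ranged from 0 to 1 without s4U and at 0 h, from 0 to 2 at 1 h, from 2 to 3 at 1.5 h, from 0 to 1 at 2.3 h and from 1 to 2 at 5.3 h. For 12 h against 0 h in STM2457 the range was 2 to 4, and for its difference from DMSO 0 to 1. DESeq2 called 1 without s4U, at 0 h, at 8 h and for the difference, and 2 at 1 h, and its size factors in edgeR gave 1 without s4U. With no filter on low counts, 0 were called at 1 h and 2.3 h, 2 at 5.3 h and 1 for the difference. With only the groups compared, 0 were called at 1 h, 4 at 1.5 h, 2 at 2.3 h, and 1 at 3.5 h, at 8 h and for the difference. With the component covariate, 1 was called at 0 h and 8 h, 2 at 1 h, 2.3 h and for the difference, and 8 for 12 h against 0 h in DMSO. Subtracting the background gave 2 called slopes, and 670 against 210 over all genes, where data up to 8 h gave 83 and leaving out 1 replicate 99 to 120. Over all genes, counts moved by over 1.5 times with only the groups compared: 107 against 326 without s4U, 0 against 194 at 1 h, 453 against 204 at 2.3 h, 310 against 164 at 3.5 h, 159 against 563 at 5.3 h, 541 against 296 at 8 h, 956 against 598 for 12 h against 0 h in STM2457, and 14 against 65 for labelling in DMSO. They moved also with DESeq2 for labelling (107 against 65 and 118 against 66), and with the covariate at 1.5 h (429 against 1035) and, upwards, at 0 h (376), 1 h (407), 2.3 h (440), 3.5 h (343), 8 h (555) and 12 h (1163), for 12 h against 0 h in STM2457 (1092), the difference (268 against 140) and labelling (194 and 208).

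Replicate numbers did not pair the libraries: deviations of same-numbered libraries had a mean correlation of 0.0097 in 35 pairs of groups, 1 of them over 0.1, and 0.011 for the half-life series. For the conversion rate over all windows, deviations of equal number were correlated (r = 0.61 over 28 pairs). With the replicate block, 2 genes were called at 1 h and 1 at 8 h, Fgf4 in both, and other counts stayed within 1.5 times.

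Without 3.5 h, half-lives were 3.03 h (DMSO) and 3.90 h (STM2457) for L1td1, 3.24 h for Utf1 in DMSO and 3.55 h for Tdgf1 in DMSO. Slope differences turned direction for Utf1 when libraries were centred (−0.0020), up to 8 h (−0.0164) and without replicate 1 (−0.0112, lowest of −0.0112 to 0.008), for Tdgf1 without replicate 2 or 3 (−0.0617 to 0.0422, and 0.0151), and up to 8 h for Dppa3 (0.0048), Dppa5a (0.0018) and Fgf4 (−0.1878). None of these was called, and the cause of the changes was not tested. Counting depth limits Fgf4 and Dppa3 most, and the end of Dppa5a holds runs shared with other transcripts.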

Other observations

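Utf1 carried conversions without any label. In the 8 libraries without s4U, 0.761% of its covered T positions were read as C, against a median of 0.065% over 7680 transcripts, of which 0.664% had a higher rate. The other 8 genes lay between 0.0219% for Fgf4 and 0.0961% for Dppa5a. The conversion rate of Utf1 at 12 h of chase, 0.740% in DMSO and 0.784% in STM2457, was thus near its rate without label, and after subtraction −5.8% and 4.3% of the 0 h rate were left. The source of these conversions was not tested.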
